A study of Mus musculus with 12 samples.

Results

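The drug-metabolising cytochrome P450 genes of the Cyp1, Cyp2 and Cyp3 families were examined across 12 mouse livers. Members were taken by symbol, as the protein-coding genes of the subfamilies Cyp1a, Cyp1b, Cyp2a to Cyp2j and Cyp3a, which gave 50 of the 22557 genes in the deposited table. RNA sequencing had been done on whole livers of age-matched female mice, 3 different mice in each of 4 groups: wild type without a tumour (WT_no_tumor), wild type with a Py8119 mammary tumour (WT_tumor), Mtdh knockout without a tumour (KO_no_tumor) and Mtdh knockout with a Py8119 tumour (KO_tumor). Py8119 cells are a line grown from a mouse mammary tumour, and Mtdh encodes metadherin, a protein studied in tumour growth and metastasis. No source used here gives the age, the strain, the knockout allele, the site of the tumour or its duration. Values are the authors' normalized values (reads of a gene divided by a size factor of the library), printed in the order of replicates 1, 2 and 3. Each fold change is a difference of log2(value + 1) means, ± SE, and adjusted p-values came from limma with Benjamini-Hochberg adjustment over all genes tested in a comparison, with a threshold of 0.05.

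Cytochrome P450 enzymes of these families are haem proteins of the endoplasmic reticulum, most abundant in hepatocytes. They oxidise drugs, environmental chemicals, steroids and fatty acids with electrons from the reductase encoded by Por. Transcription of Cyp2b, Cyp2c and Cyp3a genes is raised by the nuclear receptors PXR (Nr1i2) and CAR (Nr1i3), and that of Cyp1 genes by the aryl hydrocarbon receptor (Ahr). In mice several members, among them Cyp2b9, Cyp2b13, Cyp2a4, Cyp2c40, Cyp2c69, Cyp3a16, Cyp3a41a and Cyp3a44, are known to be female-predominant in liver, under the control of the pattern of growth hormone secretion.

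Of the 50 members, 46 stood at 10 or more in 3 or more libraries and were tested among 17380 genes. The untested members were Cyp2b19, Cyp2d11, Cyp2j8 and Cyp3a57. Cyp2j8 stood at 138 in KO_tumor replicate 1 and at 5.67 or less in the other 11 libraries. The subfamilies differed in size: Cyp2c had 13 members on chromosome 19, Cyp2d 9 on chromosome 15, Cyp3a 9 on chromosome 5, Cyp2b 5 and Cyp2a 4 on chromosome 7, Cyp2j 4 on chromosome 4 and Cyp1a 2 on chromosome 9. Cyp1b1 lay alone on chromosome 17, and Cyp2e1, Cyp2f2 and Cyp2g1 were the single members of their subfamilies on chromosome 7. The members tested were abundant genes, with a median mean value of 3710 against 184 over all genes tested, and 37 of the 46 had a mean of at least 500. Their median SE of a log2 fold change between a pair of groups was 0.363, against 0.496 over all genes.

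Estimated depth ran from 25700000 to 43000000 reads, except for 12700000 in KO_tumor replicate 1. KO_tumor replicate 1 and KO_no_tumor replicate 3 stood apart, with 14899 and 17772 genes detected, where the remaining 10 had 18726 to 20365, and results that rest on them are given with and without them. Mtdh stood at 3954 to 5702 in the 6 WT livers and at 323 to 1063 in the 6 KO livers, lower in KO with and without a tumour (−3.27 ± 0.35, limma adjusted p = 0.00301, and −3.16 ± 0.35, 0.0046). The hepatocyte markers, 9 of 10 of which are in the table, summed to 2880000 to 3300000 in WT livers without a tumour and 3610000 to 4400000 with one. Most of this sum was Alb, whose highest WT value went from 2300000 to 3350000. Of the 9 markers, 5 had a positive and 4 a negative change in WT livers, with a median of 0.0624. In KO livers the hepatocyte sum overlapped, at 3190000 to 3540000 without and 3140000 to 4780000 with a tumour. Marker lists of other cells also moved with the tumour in WT livers. All 8 sinusoidal endothelial markers together went from 7480 to 10900 up to 12700 to 15500, all 8 stellate cell markers from 10300 to 13000 up to 17900 to 21900, all 8 erythroid markers from 2190 to 4280 up to 6340 to 10600, and all 8 neutrophil markers from 7.9 to 53 up to 165 to 451. In KO livers the endothelial sum went from 8830 to 11000 up to 13400 to 19000, the stellate sum from 10800 to 12500 up to 13800 to 17300, and the neutrophil sum from 0 to 58.6 up to 59.8 to 154. Of the 3 neutrophil markers tested, 2 had a positive and 1 a negative KO change. The highest KO value went from 36.1 to 143 for Mmp9 and from 22.7 to 50 for S100a8, but from 21.7 to 8.46 for S100a9. All 8 endothelial markers had a positive KO change, and Pecam1 reached 9260 in KO_tumor and at most 3400 in the other groups. The KO erythroid sum overlapped, at 2500 to 4340 without and 2470 to 11900 with a tumour. Of its 8 markers 3 had a positive and 5 a negative KO change, with a median of −0.0696. The 8 mammary epithelial markers in the table summed to 2210 to 3120 in WT livers without and 6710 to 12200 with a tumour, and to 2440 to 3420 and 2780 to 6450 in KO livers. Lcn2, also an acute phase gene, was called higher with a tumour in WT livers. The highest WT value went from 206 to 7220 for Lcn2, from 1960 to 3790 for Krt18 and from 984 to 1590 for Krt8, while the 5 others (Krt5, Krt14, Krt17, Trp63 and Elf5) stayed at 55.3 or below in every library. The part of these cells in the results below was not tested, and in bulk tissue fewer cells of a type and less RNA per cell cannot be told apart.

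Per kilobase of transcript, 4 members led the order of levels in WT livers without a tumour. Cyp3a11, the main inducible Cyp3a enzyme of mouse liver, stood at 61300 ± 4740 per kb (SD, n = 3). Cyp3a41a, a female-predominant Cyp3a gene, stood at 53400 ± 23300 per kb, Cyp2e1, which oxidises ethanol and small solvents, at 43700 ± 13700, and Cyp2c29, an epoxygenase of arachidonic acid, at 43600 ± 9900. The ranges of these 4 genes over the 3 libraries overlapped, except that Cyp3a11 lay above both Cyp2e1 and Cyp2c29. Next came Cyp2a4, a steroid 15α-hydroxylase, at 21200 ± 6550 per kb, Cyp3a25 at 15400 ± 5060, Cyp2c69 at 10200 ± 1630 and Cyp2c40 at 9950 ± 1240, and the ranges of the last 2 overlapped in part. In WT livers with a tumour Cyp2c69 was at place 20 and Cyp2c40 at place 17 of the 49 members with a transcript, after places 7 and 8 without one.

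In WT livers, 3 of the 46 members were lower with a tumour past the threshold and none was higher. The called members were Cyp2c69, Cyp2c40 and Cyp2a22. Of all 17380 genes, 0.247% were called lower and 0.432% higher. Cyp2c69, a female-predominant Cyp2c gene (ENSMUSG00000092008, chromosome 19, 39831258 to 39875244, minus strand, mm39), stood at 14435, 19755 and 16422 in WT_no_tumor and at 2629, 2991 and 1483 in WT_tumor. In KO_no_tumor it stood at 8912, 15873 and 8813, and in KO_tumor at 3048, 3058 and 7785. Every liver with a tumour lay below every liver without one, in both genotypes. The WT mean was 16870 ± 2688 (SD, n = 3) without and 2368 ± 787 with a tumour, a log2 fold change of −2.88 ± 0.36 (limma adjusted p = 0.00307). In KO livers the mean with a tumour was 41.3% of that without, at −1.37 ± 0.36 (limma adjusted p = 0.324).

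Cyp2c40, which oxidises arachidonic acid (ENSMUSG00000025004, chromosome 19, 39755515 to 39801259, minus strand, mm39), stood at 18727, 15432 and 19686 in WT_no_tumor and at 3422, 5741 and 2215 in WT_tumor. KO_no_tumor values were 16582, 17442 and 9874, and in KO_tumor at 10028, 9179 and 12321. The 3 WT livers with a tumour were the lowest of the 12, and the KO groups overlapped. The WT change was −2.34 ± 0.31 (limma adjusted p = 0.00381) and the KO change −0.44 ± 0.31 (0.515). Cyp2a22, a Cyp2a gene (ENSMUSG00000091867, chromosome 7, 26631056 to 26638810, minus strand, mm39), stood at 1274, 1464 and 855 in WT_no_tumor and at 63.1, 189 and 299.8 in WT_tumor. Without a tumour, KO livers held 569, 1954 and 1373, and in KO_tumor at 323, 981 and 1297. Again the 3 WT livers with a tumour were the lowest of the 12. The WT change was −2.92 ± 0.60 (limma adjusted p = 0.0418) and the KO change −0.63 ± 0.60 (0.633). The Cyp2a22 call was lost when library totals were made equal (adjusted p = 0.0534) and without any 1 of 7 libraries, namely each WT library and KO_no_tumor replicate 3, at adjusted p from 0.0603 to 0.198. The Cyp2c69 and Cyp2c40 calls held under every alternative run.

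**Figure D1:**
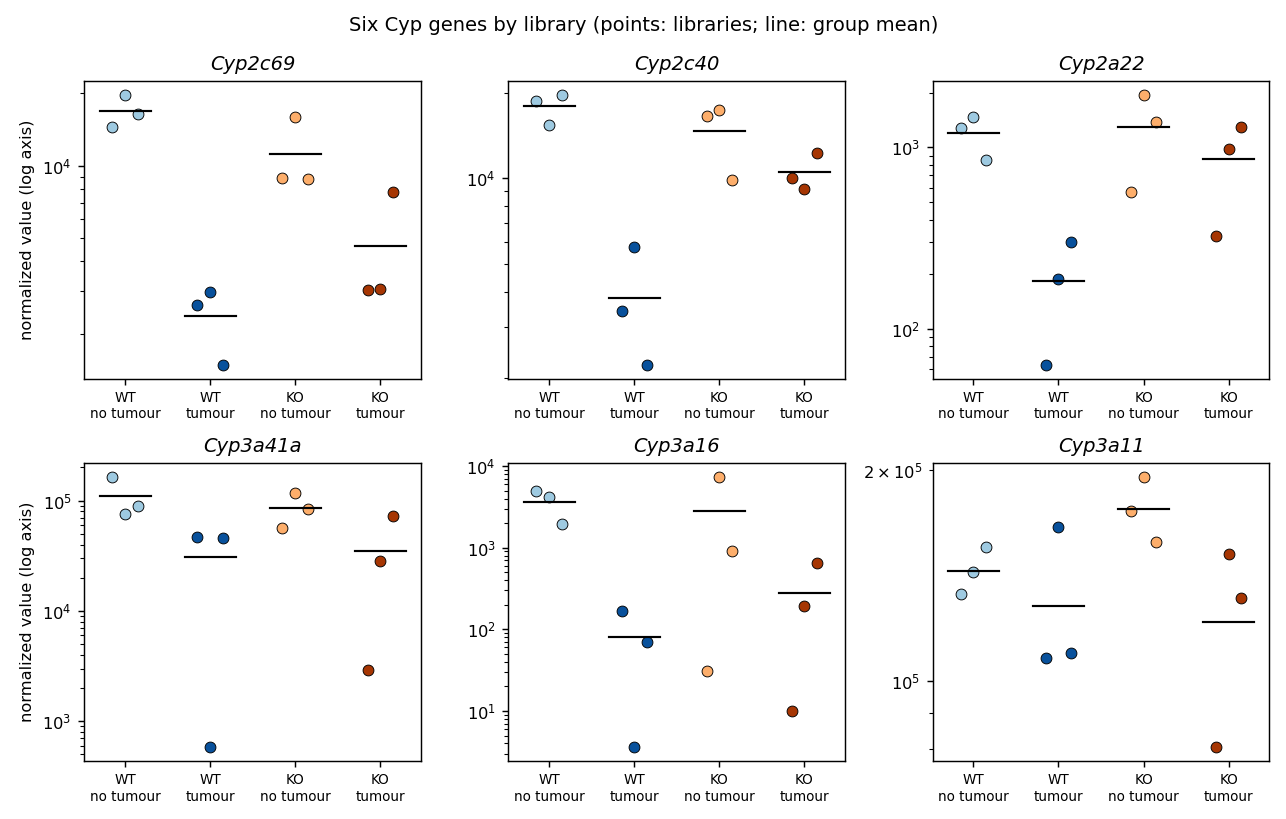
Normalized values (log axis) of 6 members in each of the 12 livers by group, with points for libraries and lines for group means. Cyp2c69, Cyp2c40 and Cyp2a22 are lowest in the WT livers with a tumour, Cyp3a41a and Cyp3a16 spread widely within groups with a tumour, and the WT groups of Cyp3a11 overlap.

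The regions upstream of the called genes and of their near relatives are shown because Cyp2c69 and Cyp2c40, both called lower, share most of them with Cyp2c67, which was not called. Windows are the 150 bases before the RefSeq start site in GRCm38.p6, all on the minus strand: chr19:39886770-39886919 for Cyp2c69, chr19:39812815-39812964 for Cyp2c40, chr19:39649043-39649192 for Cyp2c67, chr7:26939387-26939536 for Cyp2a22 and chr5:145720137-145720286 for Cyp3a41a. Capitals mark TATAAA, CAAAGTCCA (a motif bound by HNF4 factors) and ATTGAT (a core bound by HNF6), on either strand. Matches after the start site lie outside these windows and are not printed. TATAAA was matched at position 11 from the start site in Cyp2c69 and at 41 in Cyp2c40. ATTGAT was matched at 23 in Cyp2c40. In Cyp2c67 these motifs lay before the start site, at −40 (TATAAA) and −58 (ATTGAT). The capitals therefore do not show that Cyp2c69 or Cyp2c40 lacks a motif that Cyp2c67 has.
Cyp2c69: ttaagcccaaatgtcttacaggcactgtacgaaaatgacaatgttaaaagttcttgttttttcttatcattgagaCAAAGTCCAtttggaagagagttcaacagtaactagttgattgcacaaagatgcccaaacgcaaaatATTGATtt
Cyp2c40: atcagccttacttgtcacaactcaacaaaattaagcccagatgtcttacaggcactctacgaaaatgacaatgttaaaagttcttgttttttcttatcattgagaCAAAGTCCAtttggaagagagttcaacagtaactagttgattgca
Cyp2c67: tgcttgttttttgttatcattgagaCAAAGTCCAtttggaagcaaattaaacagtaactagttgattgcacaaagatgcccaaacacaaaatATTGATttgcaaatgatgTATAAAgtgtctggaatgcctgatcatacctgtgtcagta
Cyp2a22: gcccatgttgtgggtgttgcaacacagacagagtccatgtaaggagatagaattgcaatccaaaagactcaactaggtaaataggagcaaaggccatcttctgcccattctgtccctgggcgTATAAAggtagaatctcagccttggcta
Cyp3a41a: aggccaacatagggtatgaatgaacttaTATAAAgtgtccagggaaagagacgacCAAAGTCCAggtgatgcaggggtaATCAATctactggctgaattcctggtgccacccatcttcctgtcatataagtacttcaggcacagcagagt
Cyp2c69 and Cyp2c40 were 98.6% identical over 220 aligned bases of the 250 bases upstream, and Cyp2c69 and Cyp2c67 93.0% over 200. Cyp2c67, a further member of the same cluster, stood at 3339, 2955 and 2981 in WT_no_tumor and at 2686, 3142 and 2773 in WT_tumor, with overlapping groups (−0.11 ± 0.18, limma adjusted p = 0.966). The neighbouring copy Cyp2c68, whose upstream bases were 94.3% identical to those of Cyp2c69, had a change of −0.19 ± 0.20 (limma adjusted p = 0.906), with WT groups that did not overlap. CAAAGTCCA was matched in the windows of all 4 of these genes.

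Over 300-base windows (250 before to 50 after the start) on both strands, 43 members were matched to 45 RefSeq promoters. CAAAGTCCA was found in 9 of the 45 windows, against 0.475% of all 32851 promoters. Its 9 genes were Cyp2c40, Cyp2c67, Cyp2c68, Cyp2c69, Cyp2c70, Cyp3a11, Cyp3a16, Cyp3a41a and Cyp3a41b, members of only 2 clusters that share sequence by descent. TATAAA was found in 57.8% of member windows against 13.6% of all, and ATTGAT in 26.7% against 7.54%. GCGTG, the core bound by the aryl hydrocarbon receptor, was found in 11.1% against 32.4%, and TTCNNNGAA, the STAT5 motif, in 0 of 45 windows against 8.3% of all. These are matches of letters in a short window, and nothing about binding was measured.

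Near-identical transcripts limit what can be said of single members. Compared with all GENCODE M21 transcripts, 10 of 49 members were unique in every 75-base stretch, 20 were unique in under 90% of stretches and 3 in under 50%. Cyp2c40 was unique in 42.9% of stretches and shared 32.7% with Cyp2c69, and Cyp2c69 was unique in 56.8%. Cyp3a41a was unique in 4.73% and shared 91.1% with Cyp3a41b, so the split of reads between this pair is uncertain. Cyp2a22 was unique in 86.6% and shared 13.4% with Cyp2a12, whose change was −0.05 in WT livers.

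Among the 13 Cyp2c genes, 9 had a negative change with a tumour in WT livers, and the median was −0.249, but −0.0645 without WT_tumor replicate 1 and −0.485 without WT_no_tumor replicate 3. Cyp2c29, the most abundant, stood at 75695, 61328 and 96453 in WT_no_tumor and at 95869.7, 55421 and 150043 in WT_tumor. In KO_no_tumor it stood at 85668, 127416 and 70968, and in KO_tumor at 41003, 121441 and 101678. All 4 groups of Cyp2c29 overlapped, at 0.28 ± 0.46 in WT livers (limma adjusted p = 0.97). Cyp2c37, a further Cyp2c gene, had no overlap between WT groups, at 13325, 16414 and 14009.7 without and 7156, 6437 and 6919.7 with a tumour (−1.09 ± 0.30, limma adjusted p = 0.154). Its adjusted p was 0.04 without the pair of libraries that stood apart.

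The other Cyp2a genes had negative changes as well, and the subfamily median in WT livers was −1.23. Cyp2a4 stood at 44803, 41895 and 23788 in WT_no_tumor and at 9601, 18712 and 20780.1 in WT_tumor. KO_no_tumor values were 28995, 22378 and 50548, and in KO_tumor at 11549.9, 21643 and 11366. Livers with and without a tumour did not overlap in either genotype. The changes were −1.19 ± 0.39 in WT (limma adjusted p = 0.271) and −1.18 ± 0.39 in KO (0.329), and −1.18 averaged over genotypes (0.0561). The KO change of Cyp2a4 was smaller, −0.70, without the pair of libraries that stood apart. Over 19 alternatives the limma adjusted p of its averaged change ran from 0.00936, with library weights, to 0.162. Cyp2a5, the coumarin hydroxylase of mouse liver, had a change of −1.26 ± 0.57 in WT with overlapping groups. Its highest value of all, 30422, was in KO_no_tumor replicate 3.

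In the Cyp3a subfamily 7 of 8 members had a negative change with a tumour in WT livers, with a median of −1.99, and none was called. The median was −0.965 without WT_tumor replicate 2. Cyp3a41a (ENSMUSG00000075551, chromosome 5, 145630859 to 145656947, minus strand, mm39) stood at 164819, 75737 and 89621 in WT_no_tumor and at 46349.5, 579.6 and 45934 in WT_tumor. Without a tumour, KO livers held 56470.4, 118446 and 83303, and in KO_tumor at 2896, 28295 and 73308. WT_tumor replicate 2 was far below its group, and KO_tumor replicate 1 below the other KO livers. The WT groups did not overlap, yet the spread left −3.27 ± 1.37 (limma adjusted p = 0.495).

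Cyp3a16, a perinatal and female-predominant gene (chromosome 5, 145373119 to 145406534, minus strand, mm39), stood at 4901, 4219.6 and 1932 in WT_no_tumor and at 170.0, 3.6 and 69.8 in WT_tumor. In KO_no_tumor it stood at 31.2, 7411 and 906, and in KO_tumor at 9.87, 191 and 647. The mean of WT livers with a tumour was 2.20% of that without, the largest change of any member, at −6.48 ± 1.77 (limma adjusted p = 0.157). With the 6 WT libraries fitted alone its adjusted p was 0.0174. Livers without a tumour were themselves uneven in KO, where replicate 1 stood at 31.2. Cyp3a44 and Cyp3a41b also had no overlap between WT groups, with changes of −3.29 ± 1.41 and −3.37 ± 1.21, and both were lowest in WT_tumor replicate 2 and KO_tumor replicate 1. In those 2 libraries Cyp3a44 stood at 93.1 and 12.4, and Cyp3a41b at 75.6 and 953. Their depths were 35400000 and 12700000 reads.

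Cyp3a11, the most abundant member, stood at 133068, 143001 and 155243 in WT_no_tumor and at 107917, 166185 and 109828 in WT_tumor. KO_no_tumor values were 175000, 195858 and 157779, and in KO_tumor at 80438, 151832 and 131524. The WT groups overlapped (−0.19 ± 0.36, limma adjusted p = 0.974), and the KO groups did not (−0.58 ± 0.36, 0.476). Cyp3a25 had no overlap in either genotype, at −0.71 ± 0.34 in WT and −1.40 ± 0.34 in KO, and −1.05 ± 0.24 averaged over genotypes (limma adjusted p = 0.0501). Over 19 alternatives the limma adjusted p of this averaged change ran from 0.00786, with library weights, to 0.158. Cyp3a13, which is expressed more outside the liver than other Cyp3a genes, was the single member of the subfamily with a positive WT change, 0.68 ± 0.23 (limma adjusted p = 0.323). Within the subfamily, changes in WT livers ran from −6.48 to 0.68.

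The Cyp1 genes are the targets of the aryl hydrocarbon receptor. Cyp1a2, which metabolises caffeine, stood at 4344, 2363 and 5134 in WT_no_tumor and at 2318, 1833 and 2086 in WT_tumor. Without a tumour, KO livers held 4237, 5149 and 4889, and in KO_tumor at 3375, 3698 and 4626. WT livers with a tumour lay below all 9 others (−0.86 ± 0.25, limma adjusted p = 0.198). Cyp1b1, a mostly extrahepatic enzyme, was a low gene. It stood at 15.8, 12.6 and 24.6 in WT_no_tumor, at 68.4, 57.6 and 108 in WT_tumor, at 45.4, 75.2 and 26.3 in KO_no_tumor and at 4.93, 39.0 and 58.5 in KO_tumor. Its WT groups did not overlap (2.08 ± 0.87, limma adjusted p = 0.493) and its KO groups did (−0.92 ± 0.87, 0.631).

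Among the remaining subfamilies no member passed the threshold with a tumour in WT livers. Cyp2b9, a female-predominant gene, stood at 7605, 7382 and 4113 in WT_no_tumor and at 3999, 5409.9 and 5018 in WT_tumor. In KO_no_tumor it stood at 6933, 5804 and 6472, and in KO_tumor at 8080.3, 7766 and 7782. WT groups overlapped (−0.36 ± 0.23, limma adjusted p = 0.743), and the 3 KO livers with a tumour were the highest of the 12. Cyp2e1 stood at 89053, 99636 and 51761 in WT_no_tumor, at 58792, 61124 and 82261 in WT_tumor, at 105751, 85712 and 99832 in KO_no_tumor and at 85392, 75248 and 150101 in KO_tumor. Its groups overlapped with and without a tumour in both genotypes, at −0.21 ± 0.35 in WT and 0.03 ± 0.35 in KO.

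Cyp2j5, an epoxygenase of liver and kidney, stood at 17624, 18644 and 15558 in WT_no_tumor and at 13051, 10939 and 11139 in WT_tumor. KO_no_tumor values were 21437, 14929.6 and 16123, and in KO_tumor at 18749.7, 15972 and 16115. WT livers with a tumour were the lowest 3 of the 12 (−0.56 ± 0.20, limma adjusted p = 0.337). Cyp2f2, which activates naphthalene and is also high in lung, stood at 2625, 3813 and 2379.6 in WT_no_tumor, at 1777, 2222 and 1875 in WT_tumor, at 3057, 3364 and 5434 in KO_no_tumor and at 11559.5, 2578 and 4218 in KO_tumor. The highest value was that of KO_tumor replicate 1, and WT livers with a tumour were again the lowest 3 (−0.56 ± 0.41, limma adjusted p = 0.812). Cyp2g1, mainly an olfactory enzyme, stood at 105, 119.8 and 75.7 in WT_no_tumor, at 17.3, 12.2 and 77.5 in WT_tumor, at 125, 45.1 and 295 in KO_no_tumor and at 104, 21.5 and 58.5 in KO_tumor. Both pairs of groups overlapped (−1.90 ± 0.84 in WT, limma adjusted p = 0.548).

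Cyp2d genes include male-predominant Cyp2d9 and enzymes that oxidise basic drugs. The Cyp2d median was 0.17 in WT and 0.329 in KO livers, with 6 and 7 of 8 members positive, and all 8 were positive averaged over genotypes. The 8 include the low genes Cyp2d12, at 0 to 45.4 over the 12 livers, and Cyp2d34, at 0 to 17.6. The WT median was −0.0243 without WT_no_tumor replicate 2, 0.0449 without WT_tumor replicate 1 and 0.481 without WT_tumor replicate 2, and the KO median 0.55 without KO_tumor replicate 2. Cyp2d10, its most abundant member, stood at 9274, 6946 and 8683 in WT_no_tumor, at 9957, 11798 and 6755 in WT_tumor, at 11677, 11380 and 9435 in KO_no_tumor and at 14779, 10571 and 14726 in KO_tumor. Groups with and without a tumour overlapped in both genotypes (0.17 ± 0.23 and 0.29 ± 0.23). Cyp2d40 had no overlap in either, at 855, 366 and 605 against 944, 934 and 1149 in WT and at 467, 658 and 1007 against 1371, 1178 and 1897 in KO. Its change averaged over genotypes was 0.95 ± 0.23 (limma adjusted p = 0.0677), and adjusted p was 0.0438 when library totals were made equal, 0.0456 with quantile normalization, 0.00542 with library weights, 0.049 without KO_tumor replicate 2 and 0.0486 without the 2 libraries that stood apart.

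Over all 46 members, 32 had a negative and 14 a positive change with a tumour in WT livers, with a median of −0.223 against 0.00484 over all genes tested. At an unadjusted p under 0.05, 15 members were lower and 3 higher, where 4.18% of all genes were lower and 4.49% higher (8.67% together). Groups did not overlap for 16 members that were lower and for 2 that were higher (Cyp1b1 and Cyp2d40), where 8.05% of all genes were lower and 9.46% higher without overlap. Because abundant genes have smaller errors, the 5714 genes with a mean of at least 500 serve as a closer background: 527 of them (9.22%) were lower and 344 (6.02%) higher at an unadjusted p under 0.05, with a median of −0.0864. Without overlap between the groups, 785 of the 5714 were lower and 485 higher. The number of members called was 5, all lower, with the 6 WT libraries fitted alone, where 0.242% of all genes were called lower and 0.541% higher. It was 7 with library weights (6 lower, 1 higher), where 1.2% were called lower and 1.73% higher. The median of the members was −0.453 without WT_no_tumor replicate 3 and −0.355 without WT_tumor replicate 3. The added members were Cyp2c37 in both, Cyp3a16 in the first, and Cyp1a2, Cyp2a4 and Cyp3a13 in the second, with Cyp3a13 higher.

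**Figure D2:**
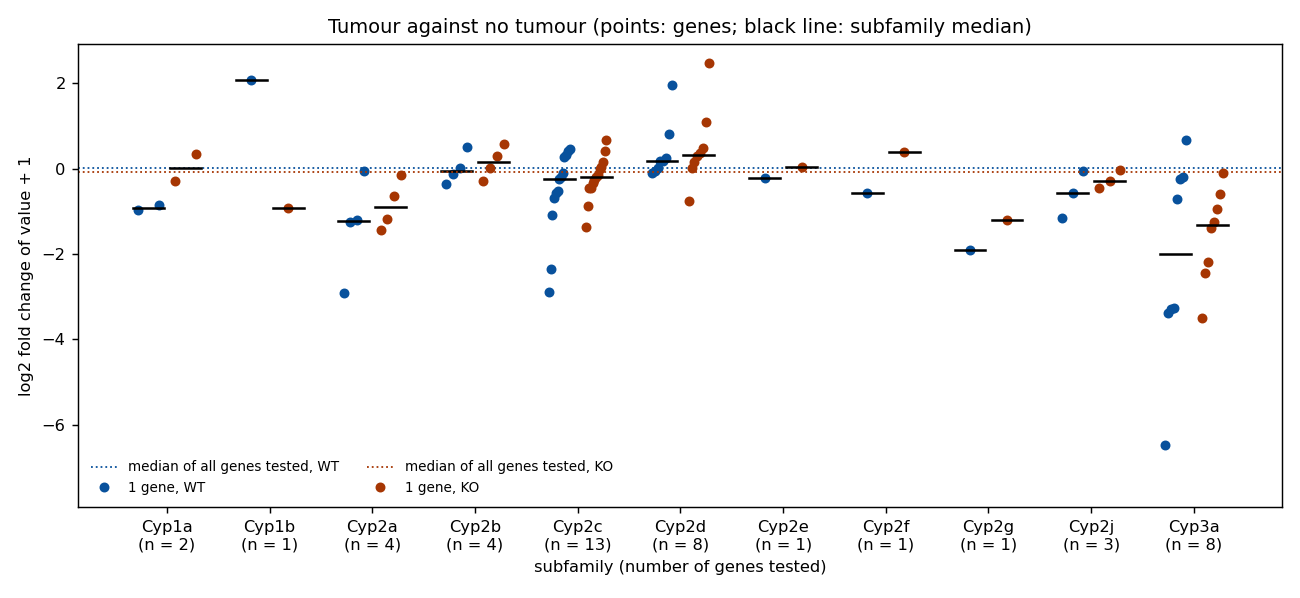
Log2 fold change of each tested member between livers with and without a tumour, by genotype and subfamily, with black lines for subfamily medians and dotted lines for the medians of all genes tested. Cyp3a and Cyp2a medians lie below 0 in both genotypes, and Cyp2d medians at 0.17 and 0.329 lie above it, the first turning to −0.0243 without WT_no_tumor replicate 2.

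In KO livers no member passed the limma threshold with a tumour, and neither did any other gene (0.0% of 17380 in each direction). At an unadjusted p under 0.05, 7 members were lower and 3 higher, where 7.58% of all genes and 13.9% of those with a mean of at least 500 were lower, and 5.13% and 6.39% higher. Groups did not overlap for 5 members that were lower (Cyp2a4, Cyp2c69, Cyp3a11, Cyp3a25 and Cyp3a59) and 4 that were higher (Cyp2b9, Cyp2c67, Cyp2d34 and Cyp2d40), where 9.48% and 7.34% of all genes did so. Cyp2d34 was a low gene, at 0.951, 9.03 and 0 in KO_no_tumor and at 9.95, 17.6 and 15.4 in KO_tumor. All 8 tested Cyp3a genes and all 4 Cyp2a genes had negative changes, with medians of −1.33 and −0.903. Without the pair of libraries that stood apart these medians were −0.655 and −0.292, and without KO_tumor replicate 1 alone the Cyp3a median was −0.811. The median of all members was −0.241, −0.0853 without the pair of libraries that stood apart, and 0.0329 with library weights, where KO_tumor replicate 1 had a weight of 0.142 and KO_tumor replicate 3 of 3.79. Over all genes tested the median was −0.0763, 0.00763 without the pair and 0.0126 with library weights. Without the pair, 4 members were lower and 2 higher at an unadjusted p under 0.05, where 2.5% and 2.95% of all genes were.

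Averaged over genotypes, Cyp2c69 (−2.12 ± 0.26, limma adjusted p = 0.00167) and Cyp2c40 (−1.39 ± 0.22, 0.00941) were lower with a tumour, where 0.449% of all genes were called lower and 0.616% higher. Before adjustment, 15 members were lower and 2 higher at p under 0.05, where 8.06% and 7.08% of all genes were. Of genes with a mean of at least 500, 18.2% were lower and 9.4% higher. Cyp2c69 and Cyp2a4 were the members whose 6 livers with a tumour all lay below the 6 without, where 0.909% of all genes did so, and 0.748% lay above. The number called was 8 with library weights (7 lower, and Cyp2d40 higher), where 2.33% of all genes were called lower and 2.59% higher. It was 5 with a pseudocount of 10 and 4 without a filter on low values. It was 4 without KO_no_tumor replicate 2 and 5 without KO_tumor replicate 2. For the pseudocount, the filter and these libraries left out, the share of all genes called was not computed, so these counts have no background.

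The test of whether the tumour change differed between KO and WT called no member and no other gene with limma. At an unadjusted p under 0.05, 4 members had a higher and 3 a lower interaction, where 1.96% and 2.74% of all genes did so (4.7% together). Of genes with a mean of at least 500, 3.24% had a higher and 3.38% a lower interaction. The 4 higher were 3 genes of the Cyp2c cluster and Cyp2a22. Cyp2c40 differed by 1.90 ± 0.43 (limma adjusted p = 0.829), Cyp2a22 by 2.29 ± 0.84 (0.859), Cyp2c69 by 1.51 ± 0.51 (0.859) and Cyp2c67 by 0.78 ± 0.25 (0.859). The 3 lower were Cyp1b1, Cyp2c70 and Cyp3a13. The median of all members was 0.236, 0.476 without the pair of libraries that stood apart, and 0.0888 to 0.419 with 1 library left out, lowest without WT_no_tumor replicate 1.

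Without a tumour, no member differed between KO and WT livers past the limma threshold, and the single gene called of 17380 (0.00575%) was Mtdh. At an unadjusted p under 0.05, 4 members were higher in KO (Cyp2b13, Cyp2c50, Cyp2d9 and Cyp3a59) and 0 lower, where 0.978% of all genes were higher and 1.93% passed in either direction. Cyp2d9 stood at 962, 604 and 601 in KO_no_tumor against 538, 122 and 418 in WT_no_tumor (1.22 ± 0.49, limma adjusted p = 1). Cyp2b13 stood at 4118, 1472 and 2946 against 2027, 1163 and 839.8 (1.06 ± 0.39, limma adjusted p = 1). The groups of Cyp2d9 did not overlap and those of Cyp2b13 did. Over all members 32 were positive and 14 negative, with a median of 0.264 against −0.00865 for all genes, and 7 were higher and 0 lower without overlap, where 3.56% and 4.37% of all genes were.

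With a tumour, members were again more often higher than lower in KO livers, and none passed the limma threshold, which 0.0115% of all genes passed in each direction (0.023% together). At an unadjusted p under 0.05, 16 of 46 were higher and 1 lower, where 6.31% of all genes and 11.7% of those with a mean of at least 500 were higher, and 8.13% and 11.3% lower. Groups did not overlap for 15 members that were higher, where 8.11% of all genes did so, and for 1 that was lower, where 9.8% did so. Of the 5714 genes with a mean of at least 500, 712 were higher and 624 lower without overlap. The median was 0.588, against −0.124 over all genes and −0.0252 over genes with a mean of at least 500. Medians were 0.773 for Cyp2c, 0.635 for Cyp2d and 0.573 for Cyp2a, and −0.0407 for Cyp3a. The Cyp3a median rested on KO_tumor replicate 1: it was 0.666 without that library, and 0.324 with library weights. The Cyp2a median was 0.34 without WT_tumor replicate 1. This comparison shares the WT_tumor libraries with the tumour comparison within WT, so the low WT_tumor values of Cyp2c40, Cyp2c69 and Cyp2a22 enter both. Cyp2c40 differed by 1.57 ± 0.31 (limma adjusted p = 0.111), Cyp2a22 by 2.27 ± 0.60 (0.159), Cyp2c67 by 0.86 ± 0.18 (0.116) and Cyp2c38 by 0.97 ± 0.22 (0.136). Cyp2c67 stood at 4748, 4702 and 6319.6 in KO_tumor, above the 9 other livers.

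Cyp2c70, which in mice makes the muricholic bile acids, was the member lower in KO livers with a tumour, at −1.15 ± 0.31 (limma adjusted p = 0.166). Among the Cyp1 genes, Cyp1a2 differed by 0.90 ± 0.25 (limma adjusted p = 0.18) and Cyp1a1 by 2.26 ± 0.91 (0.292). With library weights 16 members passed the threshold, 15 higher and 1 lower, and 4.68% of all genes were then called higher and 4.9% lower. The 15 included Cyp2c40 (1.77 ± 0.22, limma adjusted p = 0.000841), Cyp2a22 (3.46 ± 0.45, 0.000903) and Cyp2c67 (1.08 ± 0.14, 0.000903), with Cyp1a1, Cyp1a2, Cyp2a5, Cyp2b9, Cyp2c37, Cyp2c38, Cyp2c39, Cyp2c69, Cyp2d22, Cyp2d26, Cyp2e1 and Cyp2f2, and the 1 lower was Cyp2c70. Without WT_tumor replicate 2, Cyp2c40 and Cyp2c67 were called higher, where 0.742% of all genes were called higher and 0.466% lower. Without the pair of libraries that stood apart 0 were called, 11 were higher and 1 lower at an unadjusted p under 0.05, where 4.63% and 5.22% of all genes were, and the median was 0.516.

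**Figure D3:**
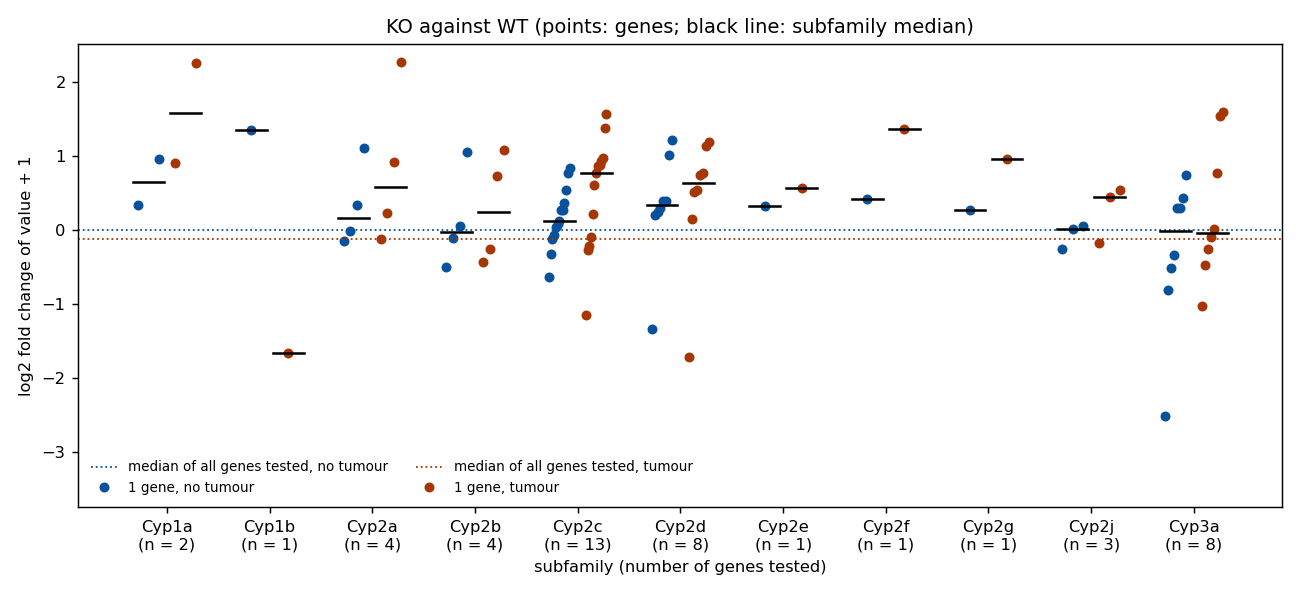
Log2 fold change of each tested member in KO against WT livers, without and with a tumour, by subfamily, with black lines for subfamily medians and dotted lines for the medians of all genes tested. With a tumour the medians of Cyp2c (0.773), Cyp2d (0.635) and Cyp2a (0.573) lie above 0, and that of Cyp3a (−0.0407) near it, but at 0.666 without KO_tumor replicate 1.

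Averaged over tumour states, 34 members were positive and 12 negative in KO against WT, with a median of 0.355 against −0.0799 over all genes. None passed the limma threshold, which 0.0115% of all genes passed. At an unadjusted p under 0.05, 15 were higher and 1 lower, where 4.86% of all genes were higher and 10.3% passed in either direction. Of genes with a mean of at least 500, 9.43% were higher and 8.03% lower. With library weights 4 members passed (Cyp2a22, Cyp2c37, Cyp2c38 and Cyp2c67, all higher), where 0.483% of all genes were called higher.

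Summed by subfamily, Cyp3a genes took the largest share of the library in WT livers without a tumour, 1.04% ± 0.0717 (SD, n = 3), then Cyp2c with 0.624% ± 0.0942, Cyp2e1 with 0.268% ± 0.0815 and Cyp2a with 0.17% ± 0.046. With a tumour the WT shares were 0.66% ± 0.0881 for Cyp3a, 0.616% ± 0.144 for Cyp2c, 0.235% ± 0.0353 for Cyp2e1 and 0.09% ± 0.0288 for Cyp2a. Cyp3a shares did not overlap between WT groups, at 0.981% to 1.12% without and 0.606% to 0.762% with a tumour, and Cyp2c shares did. In KO livers the Cyp3a share was 1.07% ± 0.245 without and 0.641% ± 0.284 with a tumour, also without overlap, and lowest in KO_tumor replicate 1 at 0.316%. All members together took 2.21% to 2.34% of WT libraries without and 1.63% to 1.86% with a tumour, and 2.12% to 2.9% and 1.28% to 2.51% of KO libraries, where the groups overlapped.

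**Figure D4:**
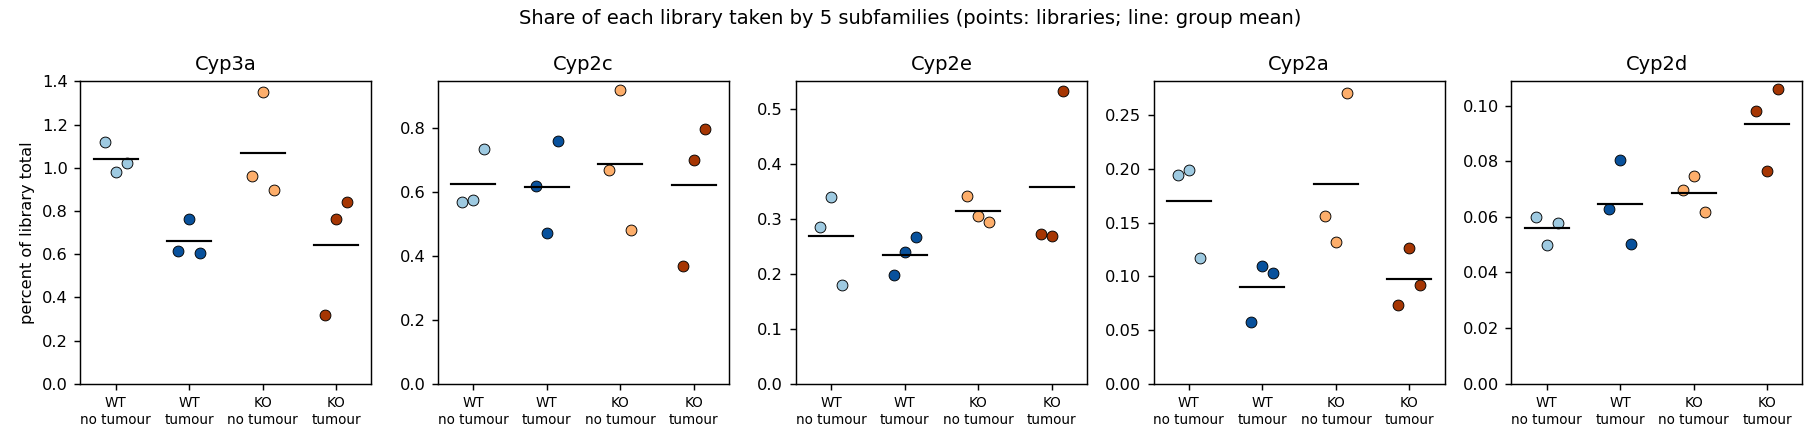
Share of the library total (percent) taken by 5 subfamilies in each of the 12 livers, with points for libraries and lines for group means. Cyp3a shares with a tumour lie below those without in both genotypes, and Cyp2c shares overlap.

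The regulators of these genes were examined as a list of 21. In WT livers with a tumour 1 of the 21 was called lower and 0 higher, where 0.247% and 0.432% of all genes were. The list had a median of −0.0626. The called gene was Onecut1, which encodes the transcription factor HNF6 and stood at 3752, 3708 and 2082 in WT_no_tumor and at 668, 756 and 584 in WT_tumor (−2.20 ± 0.44, limma adjusted p = 0.0378). Without a tumour, KO livers held 1680, 853 and 689, and in KO_tumor at 393, 1380 and 1369. The 3 WT livers without a tumour were the highest of the 12, and the KO groups overlapped. Its call was lost when library totals were made equal (0.058) and without any 1 of 6 libraries, namely WT_no_tumor replicates 1 and 2, KO_no_tumor replicate 2 and each WT_tumor replicate (adjusted p from 0.0535 to 0.18).

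Nr1i2 stood at 942, 1294 and 977 in WT_no_tumor, at 759, 814 and 539 in WT_tumor, at 1487, 941 and 1254 in KO_no_tumor and at 698, 931 and 729 in KO_tumor. Livers with and without a tumour did not overlap in either genotype, at −0.61 ± 0.24 in WT (limma adjusted p = 0.442) and −0.63 ± 0.24 in KO (0.354). Nr1i3 stood at 1741, 2117 and 2283 in WT_no_tumor, at 1354, 1223 and 1469.9 in WT_tumor, at 2482, 2831 and 3487 in KO_no_tumor and at 1188, 1916 and 2819 in KO_tumor. With and without a tumour, WT groups did not overlap and KO groups did (−0.60 ± 0.26, limma adjusted p = 0.543). Ahr stood at 2557 to 5385 over the 12 livers with overlapping groups in all 4 comparisons of a pair, and its WT change was 0.19 ± 0.27 (limma adjusted p = 0.961).

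Por, the electron donor, stood at 2022, 1132 and 999.6 in WT_no_tumor, at 991, 1145 and 739 in WT_tumor, at 2026, 1396 and 2387 in KO_no_tumor and at 1849, 1391 and 1775 in KO_tumor. KO livers with a tumour all lay above WT livers with one (0.81 ± 0.28, limma adjusted p = 0.243), and the groups overlapped in the other 3 comparisons of a pair. None of the 16 genes of electron supply and haem synthesis passed the limma threshold in any comparison. Of the 16, 6 were higher and 0 lower in KO against WT livers with a tumour, and 1 was higher and 2 lower with a tumour in WT livers, all at an unadjusted p under 0.05. Of all genes, 6.31% were higher and 8.13% lower in the first comparison, and 4.49% and 4.18% in the second.

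**Figure D5:**
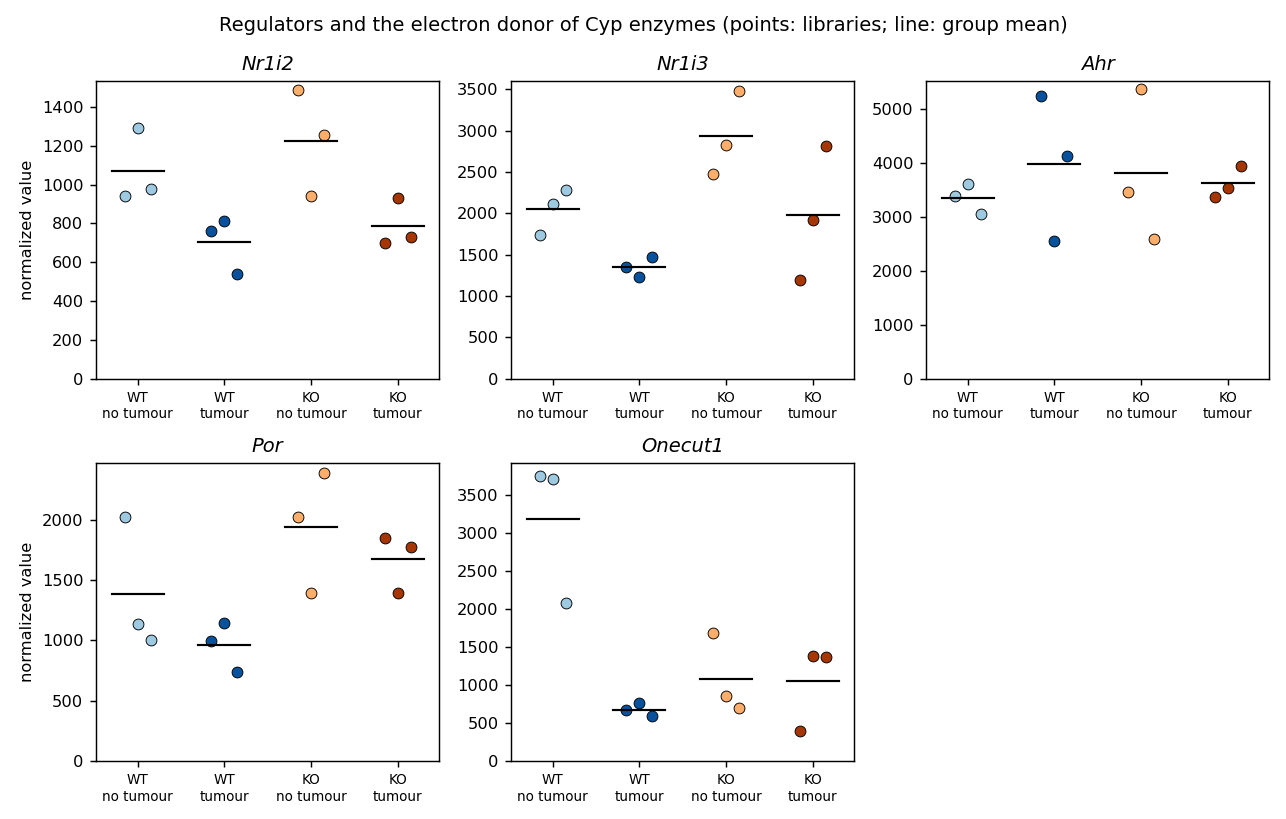
Normalized values of Nr1i2, Nr1i3, Ahr, Por and Onecut1 in each of the 12 livers by group, with points for libraries and lines for group means. Onecut1 is highest in the 3 WT livers without a tumour, and Nr1i2 lies lower with a tumour in both genotypes.

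With a tumour in WT livers, 0.247% of all genes were called lower and 0.432% higher. Of the 5714 genes with a mean of at least 500, 38 were called lower and 60 higher. Among other genes of the pathway, 3 of 23 genes of other Cyp families were called lower in this comparison, and the list median was −0.531. They were Cyp17a1, the steroid hydroxylase of the adrenal and gonads, also in mouse liver (−2.65 ± 0.31, limma adjusted p = 0.00157), and the fatty acid hydroxylase genes Cyp4a10 (−4.06 ± 0.43, 0.00157) and Cyp4a14 (−3.17 ± 0.55, 0.0184). Of 43 phase II conjugation genes, 3 were called lower, namely the sulfotransferase genes Sult2a8 (−2.01 ± 0.37, limma adjusted p = 0.0271) and Sult2a1 (−3.63 ± 0.71, 0.0356) and Fmo1, the gene of an oxidising enzyme that the list also holds (−0.96 ± 0.19, 0.0325). In KO against WT livers with a tumour 18 of these 43 were higher and 0 lower at an unadjusted p under 0.05, with a median of 0.697, and 0 were called. Of all genes, 6.31% were higher and 8.13% lower in that comparison, and of those with a mean of at least 500, 11.7% and 11.3%. Of 21 sex-biased genes under growth hormone control outside the Cyp set, 5 were called lower in WT livers with a tumour and the median was −1.22. They were Acot3, an acyl-CoA thioesterase (−4.11 ± 0.45, limma adjusted p = 0.00157), A1bg (−5.82 ± 1.11, 0.0293), Sult2a1 and the major urinary protein gene Mup3 (−1.72 ± 0.34, 0.0359), and the fifth was Cish, a feedback inhibitor induced by STAT5, whose alternatives were not run. Of 20 alternatives, 8 ended the call of Fmo1, 7 each those of Sult2a1 and Mup3, 5 each those of Sult2a8 and A1bg and 4 that of Cyp4a14, most of them with 1 WT library left out, and none ended those of Acot3, Cyp4a10 and Cyp17a1. Sult2a1 and A1bg are known as female-predominant, as Cyp2c69 and Cyp2c40 are, and Mup3 as male-predominant.

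Hepatocytes induce acute phase genes in inflammation. With a tumour in WT livers 15 of 27 acute phase genes were called higher, where 0.432% of all genes were. The list median was 1.56. The 4 with the smallest p were Steap4 (1.97 ± 0.22, limma adjusted p = 0.00157), Itih3 (2.43 ± 0.28, 0.00157), Lrg1 (3.18 ± 0.43, 0.00499) and Socs3, the feedback inhibitor induced by STAT3 (2.69 ± 0.39, 0.00814). The Socs3 call was lost without WT_no_tumor replicate 2 (0.0508) or WT_tumor replicate 3 (0.0596), and the other 3 held under every alternative run. In KO livers 0 were called, and the median was 0.789. At an unadjusted p under 0.05, 14 were higher and 1 lower in KO livers, where 5.13% and 7.58% of all genes were. Genes of the hepatocyte zones were examined because many Cyp genes are pericentral. Of 18 pericentral genes outside the Cyp set 1 was called in WT livers with a tumour, Slc13a3, which was higher (the call was lost without WT_no_tumor replicate 2, WT_tumor replicate 1 or WT_tumor replicate 3), and the median was −0.202. Of 18 periportal genes none passed the limma threshold, and the median was −0.0916. At an unadjusted p under 0.05, 2 of them were higher and 0 lower, where 4.49% and 4.18% of all genes were. No gene of any of these lists passed the threshold between KO and WT livers.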

How the data were processed

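Total RNA of snap-frozen whole livers was sequenced after depletion of ribosomal RNA, per the labels' protocols. The authors deposited 1 table of normalized signal per gene (reads divided by a size factor of the library), and the submitters' processing notes name STAR 2.7.8a, Partek and DESeq2. No source used here gives the counter, its strand setting or any filter. Of values worth up to 20 reads, 78.0% to 84.9% per library were whole reads within 0.01, so no count model was used. Depth was estimated from the value of 1 read.

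Values were transformed to log2(value + 1), and genes at 10 or more in at least 3 libraries were kept, which left 17380 of 22557. limma 3.58.1 (R 4.3.3) fitted 1 mean per group over all 12 libraries with an intensity trend and 8 residual degrees of freedom, for 7 comparisons. p-values were adjusted by Benjamini-Hochberg over all genes in each comparison, with a threshold of 0.05. The procedure was also run on simulated data. There each gene had the same spread in every library, so calls under uneven libraries were not tested. Values in every library are given for members called in a comparison and for the most abundant member of each subfamily; up to 4 called genes with the smallest p are named per pathway list, with Nr1i2, Nr1i3, Ahr, Por and Mtdh. Other members with values in every library (Cyp2b13, Cyp2c37, Cyp2c67, Cyp2d9, Cyp2d40, Cyp3a16 and Cyp3a41a) and Cish were chosen after their values were seen. The members and gene lists were chosen with earlier results of these data known. Levels per kilobase used GENCODE M21 transcripts, and promoters came from RefSeq (GRCm38.p6). Gene coordinates are those of the deposited table (mm39). Alternatives were another pseudocount, no filter, rescaling to the same total, quantile normalization, fits of the compared libraries alone, library weights, a replicate block, and leaving out libraries.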

Additional observations from a re-analysis of the deposited data

How the results depend on the processing

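In WT livers the 3 members called with a tumour became 5 with the compared libraries alone and 7 with library weights, and 2 to 4 with 1 library left out. Between KO and WT livers with a tumour, 0 called became 16 with library weights and 0 to 2 with 1 library left out. For the tumour averaged over genotypes, 2 became 5 with a pseudocount of 10, 4 without a filter and 8 with library weights, and 2 to 5 with 1 library left out. For genotype averaged over tumour states, 0 became 4 with library weights. The cause of these shifts was not tested. Shares of all genes called are given above for library weights and for the compared libraries alone. None were computed for the pseudocount, the filter or most libraries left out singly. Single genes were recomputed for members at an unadjusted p under 0.05 and the named pathway genes: of 2384 values, 2219 kept their direction and side of the threshold, 114 lost and 51 gained a call, and 0 changed sign. Of 49 medians of all members or a subfamily, 16 changed sign under at least 1 alternative, among them all members with a tumour in KO (−0.241, and 0.0329 with library weights), Cyp2c in the same comparison (−0.205, and 0.0767 with library weights), Cyp2b with a tumour in WT (−0.0637, and 0.173 without WT_no_tumor replicate 1) and the Cyp3a interaction (−0.302, and 0.928 without KO_tumor replicate 1). Replicate numbers are those of the sample titles, and the sample descriptions number the KO livers without a tumour differently. Libraries with the same title number did not deviate together: the correlation of their deviations had a median of 0.00782 over 18 pairs (−0.0936 to 0.0998). Over 36 pairs with different numbers the median was −0.00428 (−0.103 to 0.146). The highest was WT_no_tumor replicate 3 with KO_no_tumor replicate 2, a pair that the descriptions number alike. With the replicate block the members called were 3 with a tumour in WT, 3 averaged over genotypes, all lower, and 0 in the other 5 comparisons. Of all genes, 0.207% were called lower and 0.305% higher in the first, and 0.345% and 0.443% in the second. With the block, Cyp2a22 was called for the averaged tumour change (adjusted p = 0.0201) and Onecut1 in WT was not (0.0591). Depth limits KO_tumor replicate 1 most, where 1 read was worth 2.47.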
